A study of Mus musculus with 9 samples.

Results

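The nuclear-encoded genes of the mitochondrial respiratory chain were examined in sorted mouse skin cells of 2 Flg genotypes. Members were chosen by symbol, as protein-coding genes that start with Nduf, Uqcr, Atp5 or Cox4 to Cox8, together with Cyc1 and Sdha to Sdhd, leaving out pseudogenes. This gave 94 genes of 49671 gene rows in the deposited table. Complex I contributed 38 genes, its Ndufaf assembly factors 8, complex II 4, complex III 9, complex IV 18 and complex V 17. A total of 92 members passed a filter on low counts, and Cox7b2 and Cox8c did not.

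The groups were 5 wt/wt and 4 ko/ko libraries, where the genotype is that of Flg, which encodes filaggrin, a protein of the outermost, cornified epidermis. Every library came from skin cells sorted as CD45-, so without the pan-leukocyte surface protein, and CD49f+, so with the integrin alpha-6 chain. Strain, age, the nature of the ko allele and any treatment are not stated in these sources. Each title holds its own identifier, and the samples were taken as separate animals, which the labels do not state. If they were not, the p-values measure only the spread between these samples.

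The respiratory chain passes electrons from NADH and succinate through complexes I to IV to oxygen and pumps protons across the inner mitochondrial membrane, and complex V, the ATP synthase, uses the proton gradient to make ATP. Complexes I, III, IV and V are built from nuclear-encoded subunits, which are imported, and from a few subunits encoded by mitochondrial DNA, whereas complex II is wholly nuclear-encoded. Several complex IV subunits exist as paralogs with tissue-restricted expression, in muscle, lung or testis. In skin, keratinocytes, fibroblasts and vascular cells all use this machinery, so the set as a whole marks no single cell type. This need not hold for each member, such as the tissue-restricted paralogs.

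Library totals ran from 15601859 to 23200440 counts, and the members took 0.807% to 1.13% of them. Flg had 0 to 6 counts in every library, so the genotype labels could not be checked on it. Levels are given as CPM, which are counts scaled to a common library total with edgeR's TMM factors. The basal keratinocyte markers (7 of 7 detected) summed to 1356 to 2934 CPM in wt/wt and 1564 to 2461 CPM in ko/ko. Fibroblast markers (6 of 6) were present in every library, at 26034 to 57522 CPM in wt/wt and 34167 to 58049 CPM in ko/ko. Of these, Dcn, the proteoglycan decorin, had 10868 to 21870 CPM, so the fractions, which the labels call epidermal, held RNA of stromal genes beside that of keratinocyte genes. In bulk RNA, fewer cells of a type and less RNA per cell cannot be told apart.

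With all 9 libraries, no member passed edgeR's quasi-likelihood test at a Benjamini-Hochberg adjusted p under 0.05, and the lowest adjusted p of a member was 0.152, for Ndufs4. The same edgeR threshold was passed by 0.00542% of the 18435 genes tested, which is 1 gene, higher in ko/ko. At an unadjusted edgeR p under 0.05, 11 of the 92 members were lower and 0 were higher in ko/ko, beside 6.42% of all genes lower and 8.86% higher. DESeq2 called 2 members lower, Ndufs4 and Cox7a2, and 0 higher, where it called 1.11% of all genes lower and 2.53% higher. The limma voom fit, which gives each library a quality weight, called 14 members lower and 0 higher, beside 3.17% and 6.60% of all genes. The call therefore depends on the tool and on how the libraries are weighted.

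By direction, 69 of the 92 tested members had a negative log2 fold change (ko/ko over wt/wt) and 23 a positive one. The negative share was 75.0% for members and 52.6% for all genes tested, and the median log2 fold change was -0.18 against -0.03. Using library size alone in place of TMM factors moved the median of all genes to 0.08, and then 54 members were negative and 38 positive (58.7% negative). The difference between the members' median and that of all genes was -0.15 with TMM factors and -0.14 with library size alone. Summed over all 94 members, the level was 7929, 8617, 11166, 12473 and 11342 CPM in wt/wt replicates 1 to 5. In ko/ko replicates 1 to 4 the sum was 8435, 9245, 8434 and 9523 CPM. The groups overlapped, because wt/wt replicates 1 and 2 lay within or below the ko/ko range, and the means were 10305 ± 1937 CPM (SD, n = 5) and 8909 ± 560 CPM (SD, n = 4).

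Markers of cell types were read in the same libraries, and none of the myeloid or endothelial markers passed edgeR. The myeloid marker list (6 of 7 tested, all 6 positive, median log2 fold change 3.14) summed to 17 to 85.1 CPM in wt/wt and 34.7 to 223 CPM in ko/ko, with overlap. Lyz2, with a log2 fold change of 0.41, made up most of the wt/wt sum, at 51.9 ± 29.2 CPM. Cd74 had 95.4, 90.7, 31.7 and 0.607 CPM in ko/ko replicates 1 to 4 and 0.817 to 11.9 CPM in wt/wt, so ko/ko replicate 4 was not above wt/wt. Of the myeloid genes, 5 were higher at an unadjusted edgeR p under 0.05, beside 8.86% of all genes tested. DESeq2 called 5 of them higher and limma voom 1, beside 2.53% and 6.60% of all genes. Endothelial markers (5 of 5 tested) summed to 201 to 406 CPM in wt/wt and 166 to 203 CPM in ko/ko, and the ranges met. Most of the endothelial difference in sums came from Lyve1, a receptor of lymphatic endothelium, at 161 ± 66.1 CPM in wt/wt and 52.2 ± 7.48 CPM in ko/ko (SD, n = 5 and 4; edgeR adjusted p = 0.0951), the single endothelial gene that DESeq2 and limma voom called. The list as a whole had 3 negative and 2 positive genes and a median log2 fold change of -0.11. Besides Lyve1, Tie1 was at -0.66, Pecam1 at -0.11, Cdh5 at 0.38 and Kdr at 0.07. At an unadjusted edgeR p under 0.05, 2 of the 5 were lower, Lyve1 and Tie1, and 0 higher, beside 6.42% and 8.86% of all genes tested. Of the 7 basal keratinocyte markers, 6 were positive and 1 negative, with a median log2 fold change of 0.18. None passed edgeR, while DESeq2 called 1 higher and limma voom 2, beside 2.53% and 6.60% of all genes. Itga6, which encodes the sorted CD49f chain, had 53.4 ± 9.04 CPM in wt/wt and 83 ± 14.6 CPM in ko/ko (SD, n = 5 and 4), with overlap. Its log2 fold change was 0.64 (SE 0.17), with adjusted p-values of 0.157 in edgeR, 0.0267 in DESeq2 and 0.0187 in limma voom. The part of these cell types in the members' levels was not tested.

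**Figure D1:**
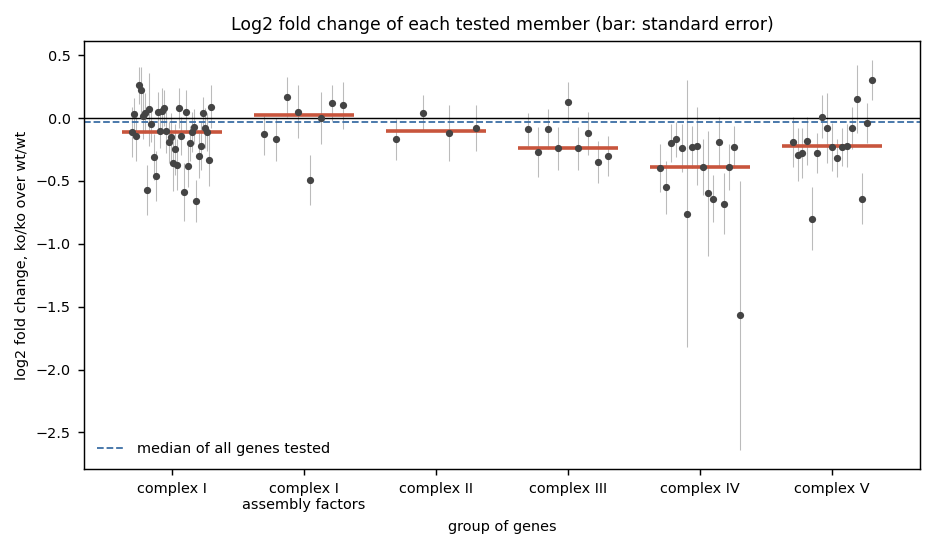
Log2 fold change of each tested member (ko/ko over wt/wt, vertical axis) by complex (horizontal axis); points are genes, thin bars are standard errors, thick lines are group medians and the dashed line is the median of all genes tested. All 16 tested complex IV genes, grouped by symbol and so without Ndufa4 and Ndufa4l2, lie below 0. Their median is -0.39 (-0.23 over the 13 that reach 1 CPM in 4 libraries), and the assembly factors have a median of 0.03.

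The share of negative genes varied between complexes. Complex IV had 16 of 16 tested genes negative with a median log2 fold change of -0.39, complex III 8 of 9 with -0.24, and complex V 14 of 17 with -0.22. Complex I had 25 of 38 genes negative with a median of -0.11, complex II 3 of 4 with -0.10, and the Ndufaf assembly factors 3 of 8 with 0.03. Groups followed the gene symbols, so complex IV here holds the Cox genes only. Ndufa4, now placed in complex IV (log2 fold change -0.57), and its paralog Ndufa4l2 (0.07) were counted with complex I. With library size alone, complex IV stayed at 16 of 16 negative with a median of -0.26, whereas complex I had 18 negative and 20 positive genes with a median of 0.01 and complex II a median of 0.02. With at least 1 CPM required in 4 libraries, which left out 3 complex IV genes, the complex IV median was -0.23 over 13 genes, close to -0.22 for complex III and -0.20 for complex V. Without wt/wt replicate 4, 15 of the 16 complex IV genes were negative and the medians were -0.20 for complex IV, -0.14 for V, -0.12 for III, -0.02 for I and -0.01 for II. Without wt/wt replicate 1 they were -0.20 for complex II and -0.17 for complex I. Complex I stood at -0.06 without ko/ko replicate 3, and complex II at -0.03 without wt/wt replicate 3, -0.04 without ko/ko replicate 1 and -0.16 without wt/wt replicate 2. These medians are descriptions, and differences between complexes were not tested.

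**Figure D2:**
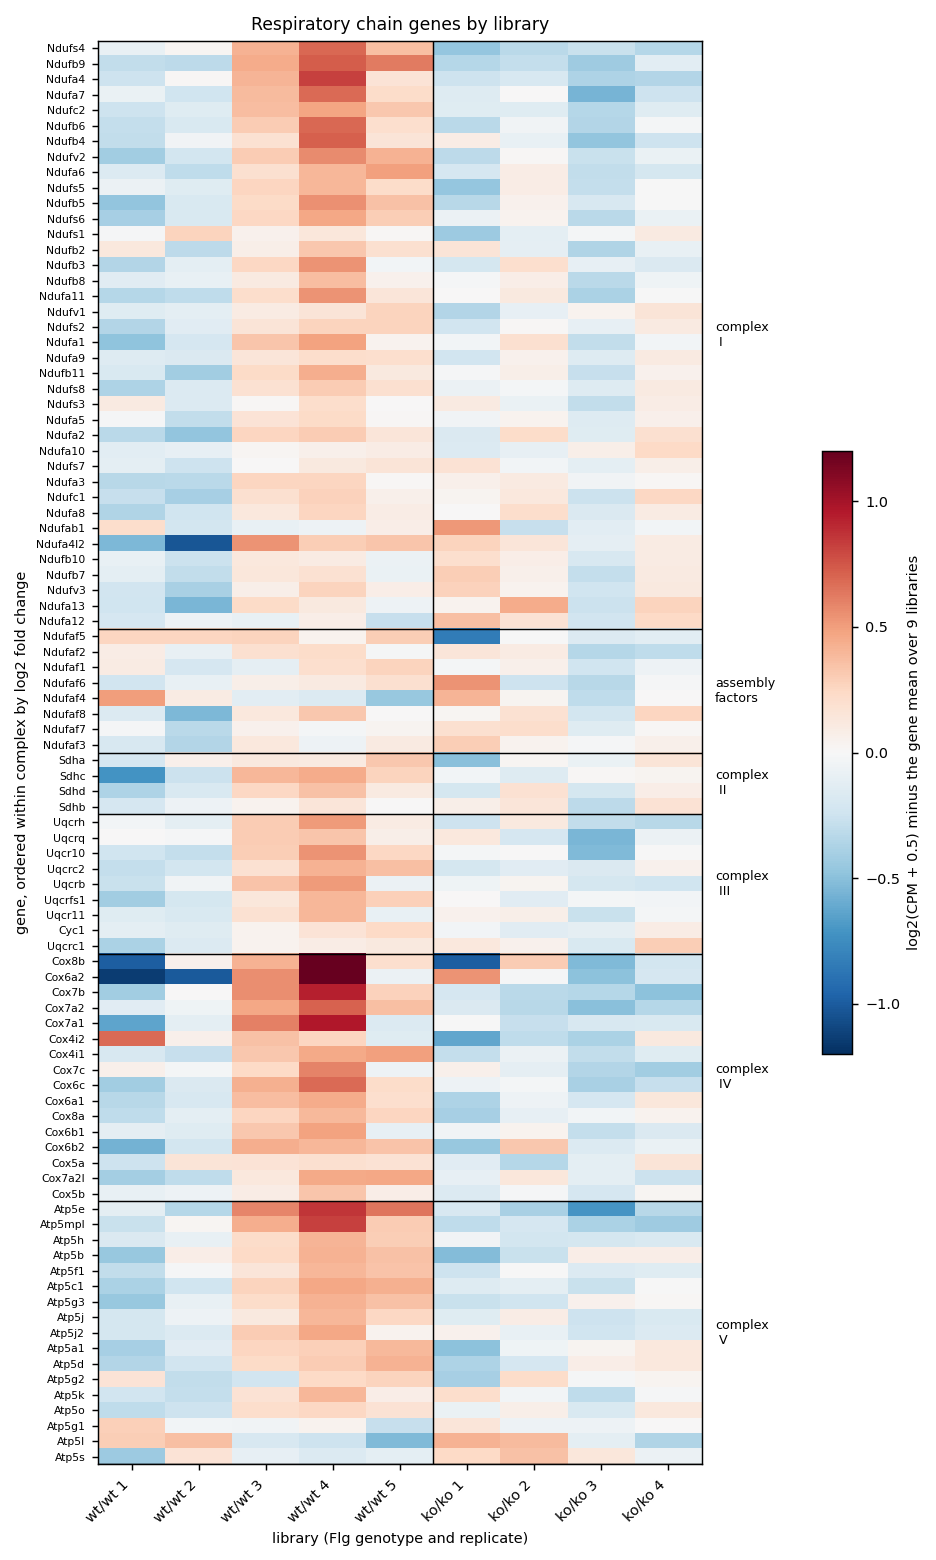
Heat map of the 92 tested members (vertical axis, by complex and by log2 fold change within it) in the 9 libraries (horizontal axis); colour is log2(CPM + 0.5) minus the gene's mean over the 9 libraries, and values beyond the scale take its end colour. Most members are red in wt/wt replicates 3 to 5, led by replicate 4, and blue in wt/wt replicates 1 and 2.

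The members moved together between libraries of one genotype. In 74 of the 92 tested members (80.4%), wt/wt replicates 1 and 2 were both below replicates 3, 4 and 5, an order held by 27.4% of all genes tested. The highest of the 9 values fell in wt/wt replicate 4 for 59 members (64.1%). Relative to each gene's own mean, the median member stood at -0.23, -0.17, 0.22, 0.38 and 0.17 log2 units in wt/wt replicates 1 to 5. In ko/ko replicates 1 to 4 the median deviations were -0.07, 0.01, -0.22 and -0.01. The ko/ko libraries thus lay between the low and the high wt/wt libraries or beside the low ones. Among 87 members with a mean of at least 5 CPM, the median coefficient of variation was 20.3% in wt/wt and 12% in ko/ko, while 11806 genes of that level had 20.7% and 19.3%.

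The wt/wt order was shared by the sums of fibroblast and of pericyte and mural markers. The fibroblast marker sum was 31852 and 26034 CPM in wt/wt replicates 1 and 2 and 52619 to 57522 CPM in replicates 3 to 5. Among ko/ko replicates 1 to 4 it was 34167, 56874, 39767 and 58049 CPM. Pericyte and mural markers (8 of 8 detected) summed to 227 and 187 CPM in wt/wt replicates 1 and 2, 384 to 498 CPM in replicates 3 to 5, and 262 to 392 CPM in ko/ko. Not every mural gene kept this order, as Cspg4 had 119 CPM in wt/wt replicate 1 and 113 CPM in replicate 5. Endothelial markers ran the other way, with sums of 406 and 362 CPM in wt/wt replicates 1 and 2 and 201, 310 and 261 CPM in replicates 3 to 5. The part of these cell types in the members' order was not tested. The title identifiers of wt/wt replicates 1 and 2 are numerically below those of every ko/ko sample and those of replicates 3 to 5 above them. What the identifiers stand for is not stated there.

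The voom fit gave weights of 0.33 and 0.425 to wt/wt replicates 1 and 2, 0.351 to ko/ko replicate 1, and 0.853 to 2.42 to the others. Leaving out these 3 libraries, a setting chosen after seeing the data, removes both wt/wt libraries in which members were low. With the remaining 6 libraries, edgeR called 15 members lower and 0 higher, where it called 5.02% of 18031 genes lower and 8.40% higher. Of these 15 members, 12 were also among the 14 called by voom (80% of the 15). They were Ndufa4, Ndufa7, Ndufb9, Ndufc2, Ndufs4, Cox4i1, Cox6c, Cox7a2, Cox7b, Atp5e, Atp5h and Atp5mpl. Voom alone added Uqcrh and Uqcrq, and the 6-library edgeR fit alone added Ndufa6, Ndufv2 and Atp5c1.

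Ndufs4 encodes an accessory subunit of the NADH-oxidising arm of complex I that is needed for a stable complex. The gene lies on mm10 chromosome 13, 114287795 to 114388094, minus strand. Ndufs4 had 48.4, 52.2, 68.7, 83.5 and 66.2 CPM in wt/wt replicates 1 to 5 and 37.2, 40.9, 42.6 and 40.4 CPM in ko/ko replicates 1 to 4. All 4 ko/ko values lay below all 5 wt/wt values. Its means were 63.8 ± 14.1 CPM (SD, n = 5) and 40.3 ± 2.23 CPM (SD, n = 4). The edgeR log2 fold change was -0.66 (SE 0.17, unadjusted p = 0.00239, adjusted p = 0.152), while the adjusted p was 0.0211 in DESeq2 and 0.0121 in limma voom.

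Groups without overlap were seen for 3 of the 92 tested members below wt/wt, Ndufs4, Cox7a2 and Ndufaf5, and for 0 above it. Over all genes tested the shares were 2.74% and 3.51%, so the share of members below wt/wt was close to that of all genes. Ndufaf5, a methyltransferase-like assembly factor that acts on complex I, lies on chromosome 2, 140170649 to 140203689, plus strand. Ndufaf5 had 15.7, 15.7, 15.8, 13.4 and 16.1 CPM in wt/wt and 7.05, 13, 11.6 and 11.9 CPM in ko/ko. Unlike most members it was not low in wt/wt replicates 1 and 2, and its lowest wt/wt value was in replicate 4. The edgeR log2 fold change was -0.49 (SE 0.20, adjusted p = 0.273).

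Ndufa4 was named as a complex I subunit and is now placed in complex IV. By symbol, Ndufa4 and its paralog Ndufa4l2 were counted with complex I in every count, median and ratio per complex given here. Ndufa4 lies on chromosome 6, 11900292 to 11907497, minus strand. Ndufa4 had 103, 123, 162, 216 and 137 CPM in wt/wt and 103, 107, 94.7 and 95.7 CPM in ko/ko. The lowest wt/wt library was within the ko/ko range, so the groups overlapped in replicate 1 alone. Its edgeR log2 fold change was -0.57 (SE 0.20, adjusted p = 0.235).

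**Figure D3:**
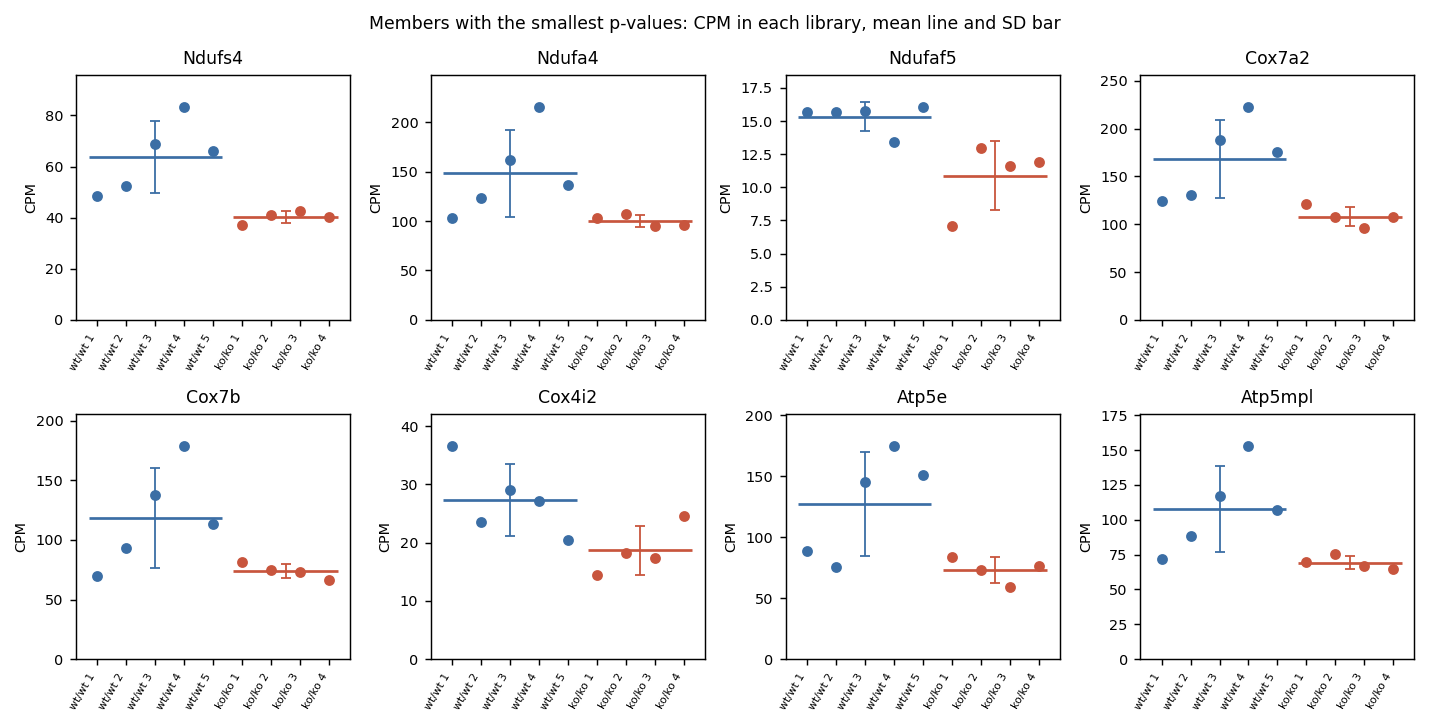
CPM of 8 members in each library (points; wt/wt blue, ko/ko red), with the group mean as a line and the SD as a bar; each vertical axis starts at 0 and has its own scale. In all of the genes but Ndufaf5 the SD is smaller in ko/ko than in wt/wt. In the 6 genes other than Ndufaf5 and Cox4i2 the wt/wt points span a low pair of libraries and a high library, as for Atp5e, from 75.9 to 175 CPM. Ndufaf5 has the larger SD in ko/ko, 2.64 against 1.08 CPM, and Cox4i2 has 4.28 CPM in ko/ko against 6.11 CPM in wt/wt.

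The core subunits of complex I, which carry the flavin and the iron-sulfur clusters, had 6 of 7 genes negative, with log2 fold changes from -0.33 to 0.04 and a median of -0.11. The 29 accessory subunits had 18 negative and 11 positive genes and the same median of -0.11, with values from -0.66 for Ndufs4 to 0.26 for Ndufa12. Ndufa12, an accessory subunit of the matrix arm, had 41.7 ± 4.11 CPM in wt/wt and 49.8 ± 8.33 CPM in ko/ko (SD, n = 5 and 4), and edgeR gave an adjusted p of 0.439. For Ndufa13, also known as GRIM-19, the log2 fold change was 0.22 (SE 0.19, edgeR adjusted p = 0.606). Ndufa13 shares exon bases with Tssk6, and whether the counting used strand is not stated in the labels.

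Per kilobase of exon, the highest complex I gene by the mean over all 9 libraries was Ndufa6, a small accessory subunit. Ndufa6 had 301 ± 70.2 CPM per kb in wt/wt and 243 ± 29.1 CPM per kb in ko/ko. Ndufb9 was its neighbour in that order at 321 ± 105 and 212 ± 18.4 CPM per kb, and the order of these neighbours was not resolved beyond their spread. The lowest were Ndufb2 and Ndufab1, at 5.45 and 6.08 CPM per kb in wt/wt. The authors' length counts the bases of all exons of a gene, so genes with long alternative exons stand too low on this scale.

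Among the other assembly factors, which join the modules of complex I and leave before the complex works, values were close in both genotypes. Over all 9 libraries, Ndufaf8 had the highest mean of the 8, at 24.6 CPM per kb. It stood at 23.9 ± 5.24 CPM per kb in wt/wt and 25.6 ± 3.66 CPM per kb in ko/ko, with a log2 fold change of 0.10. Ndufaf2 followed with a mean of 23.9 CPM per kb over all 9 libraries and a log2 fold change of -0.17. Its levels were 25.2 ± 2.33 CPM per kb in wt/wt and 22.4 ± 4.17 CPM per kb in ko/ko, within the spread of Ndufaf8. Ndufaf3 had a log2 fold change of 0.17 and Ndufaf7 one of 0.12, with edgeR adjusted p-values of 0.639 and 0.699. Ndufaf3 shares exon bases with Impdh2. The other 3, Ndufaf1, Ndufaf4 and Ndufaf6, had log2 fold changes of -0.13, 0.05 and 0.00. Without ko/ko replicate 1 the median of the 8 was -0.12.

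Complex II, the succinate dehydrogenase that joins the citric acid cycle to the chain, had 4 genes. Sdha, the flavoprotein, had 275 ± 34.7 CPM in wt/wt and 244 ± 44.9 CPM in ko/ko, with a log2 fold change of -0.17. Sdhb, the iron-sulfur subunit, had 158 ± 14 and 162 ± 23.7 CPM, with a log2 fold change of 0.04. The membrane anchors Sdhc and Sdhd had log2 fold changes of -0.12 and -0.08. All 4 edgeR adjusted p-values were 0.64 or higher, and the genotypes overlapped for each gene. Sdhc was the most variable of them in wt/wt, at 36.3, 50.1, 79.5, 81.9 and 72.3 CPM, the library order seen for most members. Per length, the order in wt/wt was Sdhd at 94.6 ± 19.1, Sdha at 70.8 ± 8.95, Sdhb at 70.4 ± 6.25 and Sdhc at 19.7 ± 6.13 CPM per kb, of which Sdha and Sdhb did not differ beyond their spread.

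In complex III, which passes electrons from ubiquinol to cytochrome c, the smallest p-values belonged to Uqcrh, the hinge protein, and Uqcrq, a small membrane subunit. Uqcrh had 153 ± 27.6 CPM in wt/wt and 121 ± 18.7 CPM in ko/ko (SD, n = 5 and 4), and the groups overlapped through ko/ko replicate 2, at 148 CPM. Its log2 fold change was -0.35 (SE 0.17, edgeR adjusted p = 0.353, limma voom adjusted p = 0.0421). Uqcrq had 88.7 ± 10.4 CPM in wt/wt, with a lowest value of 79.3 CPM, and 87.6, 69.4, 54.5 and 76 CPM in ko/ko, where replicate 1 lay within the wt/wt range and the other 3 below it. Uqcrq stood at -0.30 in log2 fold change (SE 0.16, edgeR adjusted p = 0.395, limma voom adjusted p = 0.0468). Uqcrc1, a core protein, was the only complex III gene with a positive log2 fold change, 0.13 (SE 0.16), at 306 ± 42.8 CPM in wt/wt and 334 ± 44.8 CPM in ko/ko. Uqcr10 had the highest level per length, at 179 ± 44 and 148 ± 24.7 CPM per kb. The catalytic subunits Cyc1 and Uqcrfs1, which carry the haem of cytochrome c1 and the Rieske cluster, had log2 fold changes of -0.09 and -0.12.

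Complex IV, cytochrome c oxidase, held the gene with the second DESeq2 call. Cox7a2, the widely expressed form of subunit VIIa, lies on chromosome 9, 79755361 to 79759878, minus strand. Cox7a2 had 124, 131, 188, 223 and 175 CPM in wt/wt and 121, 108, 96 and 107 CPM in ko/ko. All ko/ko values were below all wt/wt values, with wt/wt replicate 1 and ko/ko replicate 1 almost touching. The log2 fold change was -0.64 (SE 0.19), with adjusted p-values of 0.182 in edgeR, 0.0485 in DESeq2 and 0.011 in limma voom.

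Cox7b, a small subunit of complex IV encoded on chromosome X, 106015700 to 106022450, plus strand, had 70, 93.6, 138, 179 and 113 CPM in wt/wt. Its ko/ko values were 81.2, 74.8, 73.5 and 66.3 CPM, and wt/wt replicate 1 lay within them. The log2 fold change was -0.68 (SE 0.24, edgeR adjusted p = 0.23). Cox4i1, the widely expressed form of subunit IV, had 470 ± 114 CPM in wt/wt and 358 ± 27 CPM in ko/ko (SD, n = 5 and 4), and edgeR gave -0.40 in log2 fold change (SE 0.19, adjusted p = 0.35). Cox4i1 shares exon bases with Emc8. The 10 subunit genes that are expressed in most tissues ranged from -0.68 to -0.17 with a median log2 fold change of -0.31. Per length the highest were Cox6a1 at 296 ± 67.9, Cox4i1 at 303 ± 73.6 and Cox8a at 282 ± 54.8 CPM per kb in wt/wt, which did not differ beyond their spread.

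The tissue-restricted complex IV forms were read at much lower levels than their widely expressed partners. Not all were low among complex IV genes, as Cox4i2 had 27.3 ± 6.11 CPM in wt/wt and the widely expressed subunit Cox7c 26 ± 5.3 CPM. Cox4i2, the form of subunit IV known from lung and from oxygen-responsive cells, had 36.6, 23.6, 29, 27.1 and 20.4 CPM in wt/wt and 14.5, 18.2, 17.3 and 24.6 CPM in ko/ko. It was highest in wt/wt replicate 1, against the order of most members, and ko/ko replicate 4 lay within the wt/wt range. Its log2 fold change was -0.55 (SE 0.21, edgeR adjusted p = 0.256). Cox6b2, a form known from testis, had 4.77 ± 1.48 CPM in wt/wt and 4.09 ± 1.05 CPM in ko/ko.

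The forms typical of heart and skeletal muscle, Cox6a2, Cox7a1 and Cox8b, were near the limit of detection. Cox6a2 had 0, 1, 23, 67 and 12 counts in wt/wt and 19, 13, 6 and 9 counts in ko/ko. Cox8b had 0, 11, 17, 56 and 14 counts in wt/wt and 0, 16, 4 and 7 counts in ko/ko, and Cox7a1 had 9 to 47 counts in wt/wt and 16 or 17 in ko/ko. All of them peaked in wt/wt replicate 4, at 3.41, 2.85 and 2.39 CPM for Cox6a2, Cox8b and Cox7a1. Skeletal muscle markers (9 of 11 tested, 8 negative) summed to 176 CPM in that library, to between 25.2 and 66.1 CPM in the remaining wt/wt ones and to between 24.4 and 80.5 CPM in ko/ko. Acta1, skeletal actin, led the marker list with 65.6 CPM in wt/wt replicate 4, and Pvalb was at 0 in wt/wt replicate 2 and ko/ko replicate 3. Brown adipocyte markers (3 of 3 tested, 1 negative) summed to 70.2 CPM in wt/wt replicate 4, 37.5 to 59.6 CPM in the remaining wt/wt libraries and 38.1 to 76.7 CPM in ko/ko. White adipocyte markers (5 of 5 tested, all negative) summed to 12.6 CPM in wt/wt replicate 4, 14 to 21 CPM in the remaining wt/wt libraries and 9.19 to 14.9 CPM in ko/ko. The part of muscle or adipocyte RNA in these isoform values was not tested. Cox7b2 had 4 counts in wt/wt and 8 in ko/ko over all libraries, and Cox8c 0 and 1. Over a group, 3 counts, or 0.0293 CPM in wt/wt and 0.0373 CPM in ko/ko, are the upper limit that a count of 0 allows, for counting error only.

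Ratios of paralogs within a library need no scaling between libraries, and 9 of 11 pairs had enough counts to test. Ndufa4l2, a hypoxia-inducible paralog of Ndufa4, reached 14.9, 8.75, 20.3, 12.8 and 20.8% of the Ndufa4 counts in wt/wt. In ko/ko the ratio was 26.4, 23.2, 21.9 and 25.2%, above every wt/wt value. The means were 15.5 ± 5.1% (SD, n = 5) and 24.2 ± 2% (SD, n = 4), a difference of 0.71 in log2 ratio (two-sided exact permutation p = 0.0317, Benjamini-Hochberg adjusted p = 0.143 over the 9 pairs). Ndufa4l2 itself had 23.1 ± 9.49 CPM in wt/wt and 24.2 ± 2.67 CPM in ko/ko, and the log2 fold changes were 0.07 for Ndufa4l2 and -0.57 for Ndufa4. Ndufa4l2 shares exon bases with Shmt2.

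Cox7a2l, which is known for joining complexes III and IV into supercomplexes, gave the second ratio of this size. Its counts were 93.1, 95.3, 89.3, 94.2 and 122% of those of Cox7a2 in wt/wt and 118, 157, 148 and 120% in ko/ko. Only wt/wt replicate 5 reached into the ko/ko range. The log2 ratio differed by 0.46 (two-sided exact permutation p = 0.0317, adjusted p = 0.143). Neither ratio passed the adjusted threshold, and the smallest unadjusted p that the splits of 9 libraries allow is 0.00794.

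**Figure D4:**
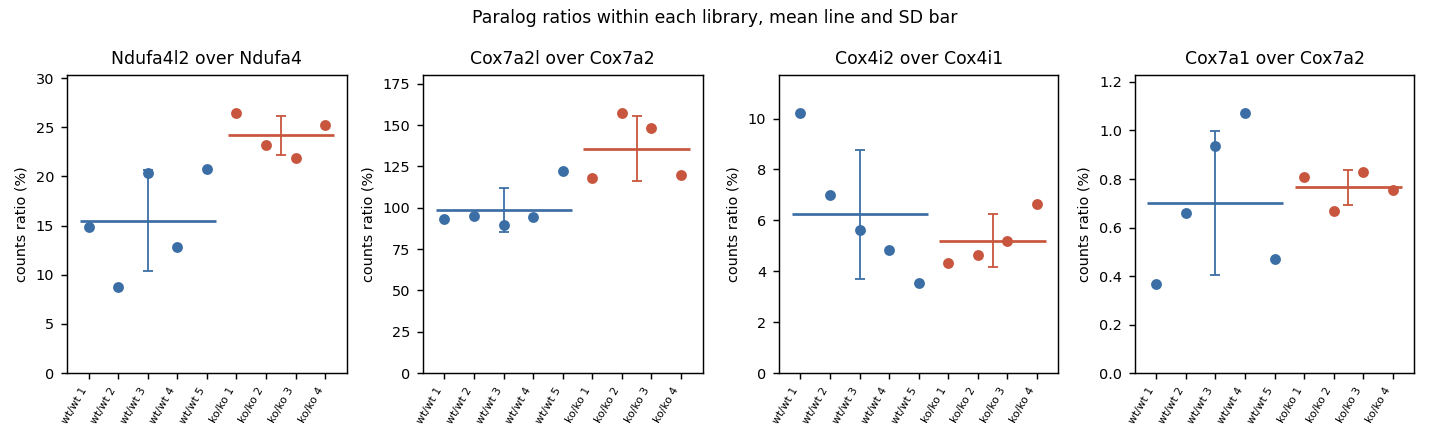
Counts of one paralog as a percentage of the other in each library (points; wt/wt blue, ko/ko red), with mean line and SD bar; vertical axes start at 0 and differ between panels. The Ndufa4l2 to Ndufa4 ratio lies at 21.9% or more in every ko/ko library and at 20.8% or less in wt/wt, while Cox4i2 to Cox4i1 and Cox7a1 to Cox7a2 overlap.

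The other 7 pairs gave unadjusted exact permutation p-values from 0.468 to 0.929. Cox4i2 was 6.24 ± 2.56% of Cox4i1 in wt/wt and 5.2 ± 1.03% in ko/ko, with a wt/wt range from 3.53 to 10.2%. Cox6b2 was 3.2 ± 0.808% of Cox6b1 in wt/wt and 3.22 ± 0.69% in ko/ko. The ratio of Cox7a1 to Cox7a2 was 0.701 ± 0.298% in wt/wt and 0.765 ± 0.0717% in ko/ko. Cox6a2 reached 0.411 ± 0.539% of Cox6a1 in wt/wt and 0.364 ± 0.262% in ko/ko, and Cox8b 0.563 ± 0.577% of Cox8a in wt/wt and 0.232 ± 0.233% in ko/ko. In these 5 pairs the tissue-restricted form stayed at 10.2% or less of its partner's counts in every library.

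In complex V, the F1 head, where ATP is made, had 5 of 5 genes negative and a median log2 fold change of -0.28. Atp5e, the small epsilon subunit of the head, lies on chromosome 2, 174461072 to 174464105, minus strand. Atp5e had 88.7, 75.9, 145, 175 and 151 CPM in wt/wt and 84.2, 73.3, 58.9 and 76.7 CPM in ko/ko. The low pair of wt/wt libraries fell into or just above the ko/ko range, and the other 3 lay well above it. Its log2 fold change was -0.80 (SE 0.25), with adjusted p-values of 0.194 in edgeR, 0.0579 in DESeq2 and 0.0111 in limma voom. The catalytic beta subunit gene Atp5b had 883 ± 190 CPM in wt/wt and 720 ± 139 CPM in ko/ko, with a log2 fold change of -0.29 (SE 0.21).

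Atp5mpl, a small membrane protein of the synthase, lies on chromosome 12, 111961376 to 111966977, minus strand. Atp5mpl had 72, 88.2, 117, 153 and 107 CPM in wt/wt and 70, 75.1, 66.6 and 64.4 CPM in ko/ko. Only wt/wt replicate 1 fell into the ko/ko range. The log2 fold change was -0.64 (SE 0.20, edgeR adjusted p = 0.2, limma voom adjusted p = 0.0148). It was the complex V gene with the highest level per length, at 294 ± 84.5 CPM per kb in wt/wt and 189 ± 12.7 CPM per kb in ko/ko. The 4 genes of the peripheral stalk were all negative, with a median log2 fold change of -0.25.

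Atp5g1, Atp5g2 and Atp5g3 encode the same mature c subunit of the proton-driven ring from different precursors. Atp5g3 dominated, at 113 ± 26.2 CPM per kb in wt/wt, with 2.62 ± 0.382 for Atp5g1 and 1.94 ± 0.401 for Atp5g2. Atp5g1 counts were 5.64 ± 2.35% of Atp5g3 counts in wt/wt and 6.23 ± 1% in ko/ko, and Atp5g2 counts 1.38 ± 0.461% and 1.47 ± 0.326%. The log2 fold changes were 0.01, -0.08 and -0.23 for Atp5g1, Atp5g2 and Atp5g3. Positive values in complex V came from Atp5s, a coupling factor gene with 0.30 (SE 0.16, edgeR adjusted p = 0.419), from Atp5l, the g subunit, with 0.15 (SE 0.27, edgeR adjusted p = 0.824), and from Atp5g1. Atp5l shares exon bases with Gm30934, and its union of exons is 6443 bases long.

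Because most members shared an order of the libraries, their start regions were searched for motifs of factors known to act on respiratory genes. RefSeq windows of 300 bases (GRCm38.p6, 250 before to 50 after the start) matched 74 members. The NRF1 core with an open base, GCGCANGCG, was in 29.7% of these members, 7.03% of all 27025 genes with a window and 13.7% of the tested ones. The stricter form GCGCATGCG, which the former includes, was in 13.5%, 1.95% and 3.65%. The YY1 motif AAGATGGCG was in 10.8% of members, 1.64% of all genes and 3.12% of tested genes, and the ETS motif CCGGAAG in 24.3%, 9.93% and 18.1%. The ERR motif AAGGTCA was in 10.8%, 5.38% and 4.07%, and the Sp1 box GGGCGG in 44.6%, 38.2% and 65.3%. Both strands were searched, and a match describes letters in a window, not a bound site.

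The windows of 5 members are printed 5′ to 3′ on the gene's strand, with NRF1, YY1, ETS and ERR motif letters in capitals. Ndufs4, Cox7a2 and Ndufaf5 are shown because their genotypes did not overlap, Atp5e for its large wt/wt range, and Cox7a1 as a muscle form read at trace level. The windows are chr13:114388045-114388344 (minus strand) for Ndufs4, chr9:79759804-79760103 (minus strand) for Cox7a2 and chr2:140170396-140170695 (plus strand) for Ndufaf5. For Atp5e the window is chr2:174464052-174464351 (minus strand) and for Cox7a1 chr7:30183921-30184220 (plus strand).
Ndufs4: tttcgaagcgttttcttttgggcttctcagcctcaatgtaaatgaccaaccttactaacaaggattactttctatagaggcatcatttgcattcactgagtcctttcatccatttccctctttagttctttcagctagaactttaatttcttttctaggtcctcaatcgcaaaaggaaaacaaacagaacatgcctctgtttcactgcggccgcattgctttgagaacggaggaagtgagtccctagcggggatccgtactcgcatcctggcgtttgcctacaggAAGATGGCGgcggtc
Cox7a2: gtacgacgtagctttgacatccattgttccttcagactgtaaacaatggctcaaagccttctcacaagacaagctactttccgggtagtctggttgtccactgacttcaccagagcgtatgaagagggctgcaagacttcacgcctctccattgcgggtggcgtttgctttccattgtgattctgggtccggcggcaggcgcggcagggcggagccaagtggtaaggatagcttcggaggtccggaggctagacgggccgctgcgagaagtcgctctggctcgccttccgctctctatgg
Ndufaf5: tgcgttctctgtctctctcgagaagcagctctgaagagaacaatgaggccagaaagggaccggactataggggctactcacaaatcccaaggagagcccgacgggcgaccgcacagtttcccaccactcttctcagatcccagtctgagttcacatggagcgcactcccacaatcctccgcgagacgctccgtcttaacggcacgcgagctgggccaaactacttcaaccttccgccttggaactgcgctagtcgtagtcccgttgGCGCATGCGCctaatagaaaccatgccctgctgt
Atp5e: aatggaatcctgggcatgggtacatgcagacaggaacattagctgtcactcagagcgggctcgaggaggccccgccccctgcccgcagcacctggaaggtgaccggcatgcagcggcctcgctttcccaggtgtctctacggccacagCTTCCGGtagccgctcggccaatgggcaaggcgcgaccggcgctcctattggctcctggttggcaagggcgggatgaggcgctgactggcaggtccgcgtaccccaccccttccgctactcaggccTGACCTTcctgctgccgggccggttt
Cox7a1: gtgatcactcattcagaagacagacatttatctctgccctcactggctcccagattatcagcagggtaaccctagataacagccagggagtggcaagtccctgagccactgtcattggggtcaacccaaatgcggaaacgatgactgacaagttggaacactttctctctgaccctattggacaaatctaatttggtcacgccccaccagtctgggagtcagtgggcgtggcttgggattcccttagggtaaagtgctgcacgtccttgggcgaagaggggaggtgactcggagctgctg

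The Ndufs4 window held the YY1 motif at position 36, counting the start as 1. The Ndufaf5 window held the strict NRF1 core at position 17, on both strands with an overlap. In Atp5e, the ETS motif began 102 bases before the start and the ERR motif at position 25, each on the opposite strand to the gene, so the capitals read CTTCCGG and TGACCTT. Cox7a2 held none of these 4 motifs and a single Sp1 box, and Cox7a1 held none of the motifs searched. Within the windows, the 3 genes whose genotypes did not overlap had none of these motifs in common. A lack of overlap below wt/wt was about as frequent over all genes tested (2.74%), so these 3 are not read as a class of their own.

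The nuclear genes were set beside the subunits encoded by mitochondrial DNA, which had 13 of 13 genes negative and a median log2 fold change of -0.86. That median was -1.47 without ko/ko replicate 1, and -0.66 without ko/ko replicate 3, the value nearest to 0 with a single library left out. None of the 13 passed edgeR, and 4 of them had an unadjusted edgeR p under 0.05, all lower, beside 6.42% of all genes tested. DESeq2 called 1 of them lower and limma voom 5, beside 1.11% and 3.17% of all genes. mt-Co1, the catalytic subunit of complex IV, had 5833, 7740, 9711, 13859 and 6948 CPM in wt/wt and 6265, 2449, 1822 and 1673 CPM in ko/ko. ko/ko replicate 1 lay within the wt/wt range and the other 3 ko/ko libraries below it. Its log2 fold change was -1.53 (SE 0.41, edgeR adjusted p = 0.159, DESeq2 adjusted p = 0.00738).

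Summed counts of the nuclear complex IV genes were 0.211, 0.168, 0.195, 0.156 and 0.269 times those of the 3 mitochondrially encoded ones in wt/wt. In ko/ko the ratio was 0.199, 0.568, 0.664 and 0.769, so replicates 2 to 4 lay above the wt/wt range and replicate 1 within it. The ratio for complex I was 0.22 ± 0.145 in wt/wt and 0.376 ± 0.166 in ko/ko, for complex III 0.113 ± 0.077 and 0.163 ± 0.0738, and for complex V 8.22 ± 4.8 and 11.5 ± 5.86 (SD, n = 5 and 4). For these 3 complexes wt/wt replicate 5 also had a high ratio, 0.462 for complex I, so the genotypes overlapped more widely. The mitochondrially encoded share of all counts was 2.77 to 7.55% in wt/wt, 6.3% in ko/ko replicate 1 and 1.81 to 2.01% in ko/ko replicates 2 to 4. The library order of the nuclear members, low in wt/wt replicates 1 and 2, was not that of the mitochondrial share, which was highest in wt/wt replicate 2. These ratios are descriptions with no test.

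**Figure D5:**
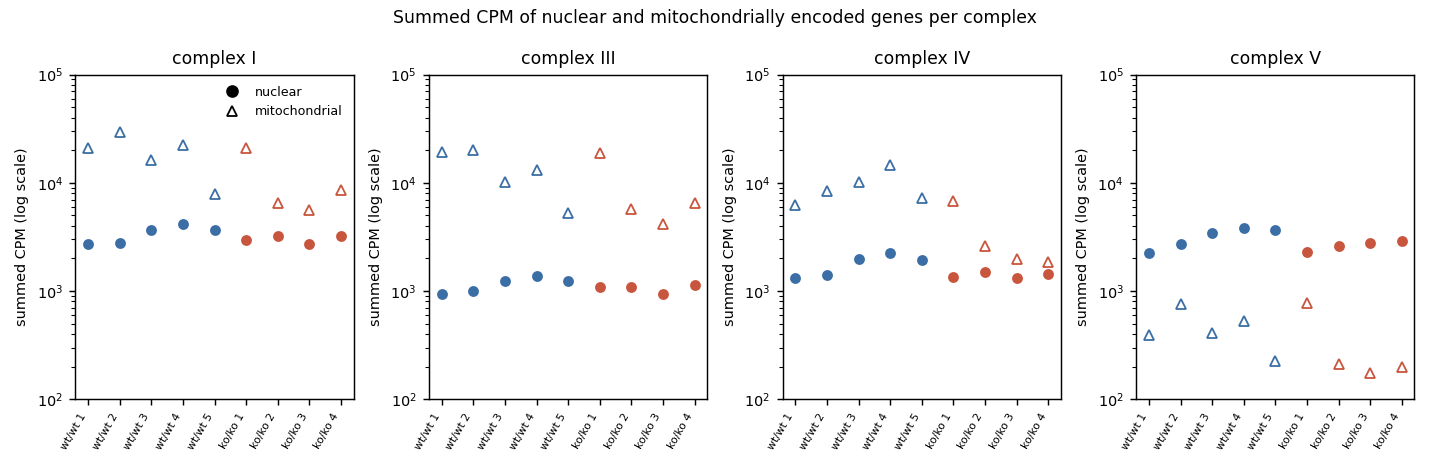
Summed CPM (log axis) of nuclear (filled circles) and mitochondrially encoded (open triangles) genes of complexes I, III, IV and V in each library; blue is wt/wt and red is ko/ko. For complex IV the nuclear sums span 1309 to 2254 CPM, while the mitochondrial sums span 6284 to 14446 CPM in wt/wt and 1854 to 2614 CPM in ko/ko replicates 2 to 4, with ko/ko replicate 1 at 6789 CPM.

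The lists of factors that build the complexes had from 50% (complex III) to 100% (complex II) negative genes, beside 52.6% of all genes tested. The 22 tested complex IV assembly factors had 14 negative and 8 positive genes and a median log2 fold change of -0.17. In edgeR 0 passed and 2 had an unadjusted p under 0.05, both lower, beside 6.42% of all genes tested. Those were Taco1, a translational activator of mt-Co1, with -1.49 (SE 0.50, edgeR adjusted p = 0.217) and Cmc1, which stabilises newly made mt-Co1, with -0.40 (SE 0.18, edgeR adjusted p = 0.321). Taco1 was low throughout, at 1.49 to 4.58 CPM in wt/wt and 0.453 to 1.36 CPM in ko/ko. The 4 complex II factors were all negative with a median of -0.33, the 6 complex III factors had a median of 0.04, the 8 further complex I factors -0.05 and the 3 complex V factors -0.12. Ttc19, a complex III factor, stood at 0.86 in log2 fold change (SE 0.29, edgeR adjusted p = 0.219, limma voom adjusted p = 0.0397). It had 64.8 CPM in ko/ko replicate 1, where the remaining ko/ko libraries had 25.4 to 30.3 CPM and wt/wt had 15.7 to 29 CPM.

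Pathways next to the chain were mixed in direction. Of 13 citric acid cycle enzymes, 9 were negative with a median log2 fold change of -0.14, and 12 genes of cytochrome c and coenzyme Q had 5 negative and a median of 0.05. Mdh2, mitochondrial malate dehydrogenase, stood at 0.43 in log2 fold change (SE 0.15, edgeR adjusted p = 0.227), and Dlst, a subunit of oxoglutarate dehydrogenase, had one of -0.34 (SE 0.13, edgeR adjusted p = 0.258). Dlst had 61.2 to 81.4 CPM in wt/wt and 50.2 to 55.3 CPM in ko/ko, without overlap. Among 13 regulators of respiratory genes, the median was -0.06 and 0 passed edgeR. At an unadjusted edgeR p under 0.05, 2 were lower and 1 higher, beside 6.42% and 8.86% of all genes tested. Tfam, which packages and transcribes mitochondrial DNA, had 26.6, 37.9, 35.5, 38.6 and 44.7 CPM in wt/wt and 14.5, 29.1, 24.6 and 26.5 CPM in ko/ko. The groups overlapped through wt/wt replicate 1, and the log2 fold change was -0.63 (SE 0.22, edgeR adjusted p = 0.223, limma voom adjusted p = 0.0309). Yy1, the factor whose motif lies in the Ndufs4 window, stood at 0.47 in log2 fold change (SE 0.18, edgeR adjusted p = 0.254, limma voom adjusted p = 0.0343).

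Since Cox4i2 and Ndufa4l2 are known as oxygen-responsive forms, 11 hypoxia response genes were read beside them. Of these, 9 were negative with a median log2 fold change of -0.16, and in edgeR 0 passed. At an unadjusted edgeR p under 0.05, 3 were lower and 1 higher, beside 6.42% and 8.86% of all genes tested. Vegfa, a vascular growth factor, had 9.71, 8.27, 7.67, 4.98 and 2.39 CPM in wt/wt and 20.2, 13, 15.4 and 11.5 CPM in ko/ko, without overlap. Its log2 fold change was 1.18 (SE 0.35), with adjusted p-values of 0.184 in edgeR, 0.0378 in DESeq2 and 0.0201 in limma voom. Slc2a1, the glucose transporter GLUT1, stood at -0.39 in log2 fold change (SE 0.15, edgeR adjusted p = 0.263). Most of these genes, 81.8% beside 52.6% of all genes tested, were thus negative without passing the edgeR test. Vegfa and Hk2 were positive, with Hk2 at 0.68 in log2 fold change (SE 0.32, edgeR adjusted p = 0.34). Cox4i2 and Ndufa4l2 themselves had log2 fold changes of -0.55 and 0.07.

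Counting could blur some members. Of the 94, 27 share exon bases with another gene, and 11 processed pseudogenes carry a member's name. Cox6c2 had 22 to 24.3% of the counts of Cox6c, Ndufs6b 32.8 to 39.9% of Ndufs6 and Uqcrh-ps2 10.2 to 13.3% of Uqcrh, so the levels of these parents are uncertain where reads could be split. The mean shares were close in the genotypes, as for Cox6c2 at 23% in wt/wt and 22.9% in ko/ko. Members are short, with a median exon length of 1490 bases against 3390 for all genes tested. Across genes, which are not independent replicates, Spearman's rho between log2 fold change and exon length was 0.26 over the 92 members and 0.16 over all genes. With the exon-length trend of each library removed, edgeR left 78 members negative and 14 positive, and with the GC trend removed 77 and 15.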

How the data were processed

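RNA of CD45- CD49f+ skin cells from 9 samples was amplified over 13 cycles, per the labels' protocols. The authors deposited raw read counts per gene, 1 column per sample, with an exon length per gene. The submitters' processing notes name GSNAP, featureCounts 1.6.2 and mm10, with no roles, and the deposited table's name points to Ensembl release 87. Handling of strand, multi-mapped reads and duplicates is not given in these sources. No molecular identifiers are named, so floors cover counting error only. A set of 92 spike-in rows was left out of 49671 gene rows; 49412 rows matched a symbol in GENCODE M21 and 45214 had identical start and end there. Positions are those of the authors' table.

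Differential expression used edgeR 4.0.16 in R 4.3.3 (filterByExpr, which kept 18435 genes, TMM, glmQLFit with robust=TRUE, two-sided quasi-likelihood F test, Benjamini-Hochberg threshold 0.05) and was tested on simulated data. SE stands for standard error, computed as |log2 fold change| divided by the root of F. CPM use TMM-adjusted library sizes, and shares and ratios use counts. DESeq2 1.42.0 and limma 3.58.1 (voom with quality weights) were alternatives, with other scalings, filters, trend corrections (loess span 0.3) and left-out libraries. Paralog ratios added 0.5 counts and used exact permutation tests over every split of the 9 libraries (scipy 1.17.1); a pair was not tested where a gene had under 10 counts in more than 4 libraries.

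The members and lists were chosen with earlier results of these data known. Named members were, in each complex, the highest per length over all 9 libraries, those with the smallest p-values in each direction (up to 2 each), the Sdh genes and the paralog pairs. Of each pathway list, at most the 2 with the smallest p were named, and Hk2 was added after values were seen. Members named beyond this rule, the role groups, printed windows and motifs were chosen after values were seen. By current RefSeq symbols the rule also finds 94 members, with Atp5md in and Atp5s out.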

Additional observations from a re-analysis of the deposited data

Results flagged for a closer look

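In 4 of 114 groups of values checked, where chance gives about 1 in 20 (5.7 groups), 1 library stood far from the others. Ndufaf5 in wt/wt replicate 4 was at 3.80 on the log2(CPM + 0.5) scale, below 4.01 to 4.05 in the other wt/wt libraries. Ndufaf7 in wt/wt replicate 2 was at 4.96, below 5.26 to 5.34. Uqcr10 in ko/ko replicate 3 was at 6.03, where the remaining ko/ko libraries had 6.54 to 6.57. The log2 ratio of Cox7a2l to Cox7a2 in wt/wt replicate 5 was 0.28, above -0.16 to -0.07 in the other wt/wt libraries. The synthetic spike-in rows, which no comparison used, had 6 counts in wt/wt replicate 1 and 1 to 3 counts elsewhere.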

How the results depend on the processing

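With 9 libraries, edgeR called 0 members under each other scaling, filter or trend setting and with each single library left out. The lower calls were 2 in DESeq2, 14 in limma voom and 15 without the 3 libraries of low quality weight, where edgeR was fitted on 3 against 3; the last was chosen after seeing the data. The count lower at an unadjusted p under 0.05 (11 with all libraries, beside 6.42% of all genes tested) was 7 with library size alone (3.24% of all genes), 39 in voom (12.5%), 45 without the 3 low-weight libraries (13.6%), and 7 to 19 with single libraries left out (4.52 to 7.81%): 19 without wt/wt replicate 1 (7.81%), 17 without wt/wt replicate 2 (6.78%), and 7 without replicate 3 of wt/wt (5.19%) or of ko/ko (5.68%). The members' median log2 fold change (-0.18) was -0.24 without wt/wt replicate 1 and -0.10 without wt/wt replicate 4, which held the highest values of most members, and lay between these with each other single library left out. It was -0.33 without the 3 low-weight libraries, -0.30 in voom, -0.25 without the 3 libraries richest in reads of Gm10800 and similar predicted genes, and -0.06 with library size alone.

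The median of the Ndufaf assembly factors (0.03) was -0.12 in voom, -0.13 without the 3 low-weight libraries and -0.12 to 0.13 with single libraries left out. For the hypoxia genes (-0.16) it was -0.06 with library size alone, -0.24 without the length trend, -0.30 without the GC trend, -0.08 without the Gm10800-rich libraries, and -0.29 to -0.09 with single libraries left out. The median of the complex III assembly factors was -0.14 and that of the regulators 0.06 without the 3 low-weight libraries, and that of the further complex I factors ran from -0.19 to 0.02 with single libraries left out. The cause was not tested. Without a low-count filter, the members' median differed from that of all genes by -0.35, since 40310 genes then entered. The mitochondrially encoded list gave no value with those genes removed. No paired analysis was possible because replicates were numbered in accession order, which pairs no samples. Depth limits Cox7b2 and Cox8c, which had 8 counts or fewer per group, and the muscle forms.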
